A study of Bos taurus with 9 samples.

Results

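Annexins are proteins that bind acidic phospholipids at the inner face of membranes when calcium rises, and each pairs a conserved core with an N-terminal tail of its own. They take part in membrane repair, vesicle traffic and the linking of membranes to actin, and several bind partner proteins of the S100 family through the tail. In cartilage they are best known from matrix vesicles, the small membrane particles of the growth plate in which mineral first forms and in which ANXA2, ANXA5 and ANXA6 are abundant. The account covers every probe set of the bovine array named for ANXA1, ANXA2, ANXA3, ANXA4, ANXA5, ANXA6, ANXA7, ANXA8 or ANXA11. Of these 9 genes 8 were measured, among 9155 named genes on the array, by 12 of 24016 probe sets, 4 for ANXA5, 2 for ANXA11 and 1 for each of the others except ANXA7, which had no named probe set and was not analysed here. The ANXA8 probe set carries the symbol ANXA8L1, of which RefSeq lists ANXA8 as a synonym, and is called ANXA8L1 here.

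RNA came from cells of 3 calves aged 3 to 6 months, embedded in agarose, with 1 array for each calf in each of 3 groups. The groups were articular chondrocytes after 28 days in chemically defined medium with 10 ng/mL TGF-beta3 (chondrocytes_day28), marrow mesenchymal stem cells, MSCs, after the same 28 days in that medium (MSC_day28), and undifferentiated MSCs taken right after embedding (MSC_day0). Arrays that share a number share the calf, called the donor below, and the labels give the chondrocytes of donors 1 and 2 as embedded directly once isolated. No chondrocytes at day 0 and no MSCs cultured without TGF-beta3 were among the samples, so that time, medium and gel culture cannot be told apart in the change of MSCs, and cell source and time cannot be told apart between chondrocytes_day28 and MSC_day0. All values are log2 expression after RMA, and differences are log2 differences ± SE from a limma fit of 3 arrays per group, with a p adjusted by Benjamini-Hochberg over all 24016 probe sets, called at an adjusted p under 0.05.

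The labelled cell types were checked against marker lists. All 6 chondrocyte markers fixed for the check (COL2A1, ACAN, COMP, HAPLN1, COL9A1 and COL11A2) were higher in chondrocytes_day28 and in MSC_day28 than in MSC_day0, and none of the 6 was called between chondrocytes_day28 and MSC_day28, so that these markers did not separate the day 28 groups. Of 6 marrow stromal markers, 3 were lower in MSC_day28 than in MSC_day0, where 21% of all genes were lower. Of 3 measured osteoblast markers, IBSP averaged 12.71 in chondrocytes_day28, 12.89 in MSC_day28 and 12.80 in MSC_day0. ALPL was higher in both day 28 groups than in MSC_day0, and IBSP and BGLAP were called in no comparison. Of 10 blood cell markers, CD3E, MS4A1 and HBB lay under the 25th percentile of their array on all 9 arrays, PTPRC on 8, AIF1 on 7 and TYROBP on 3, and CD14, CD68, CTSS and CSF1R on 0. CSF1R was higher in MSC_day28 than in MSC_day0, by 1.62. In chondrocytes_day28 minus MSC_day0, 2 blood cell markers were higher and 4 lower, where 15.1% of all genes were higher and 20.9% lower. CSF1R and CD14 were higher, by 3.23 and 2.67. TYROBP, AIF1, CD68 and CTSS were lower, at -1.97, -2.10, -1.19 and -2.27. The summed linear signal of 4 adipocyte markers ranged from 60.91 to 131.4 in chondrocytes_day28, from 70.85 to 96.78 in MSC_day28 and from 1451 to 2245 in MSC_day0, mostly from FABP4. That of 6 endothelial markers ranged from 443.7 to 525.8 in chondrocytes_day28, from 344 to 389.5 in MSC_day28 and from 151 to 234.5 in MSC_day0, where TEK and ERG were lower and PECAM1, CDH5 and KDR were near the bottom of the scale in every group. The part of these cell types in the results was not tested. The arrays chondrocytes_day28 replicate 3 and MSC_day28 replicate 3, called the low-control arrays below, had a weak hybridisation control, with bioC at 8.39 on average against 11.29 on the other 7. Signal at the 3′ end minus that at the 5′ end, averaged over 3 control transcripts, ranged from 0.34 to 0.46 in chondrocytes_day28, from 0.49 to 0.77 in MSC_day28 and from 0.16 to 0.28 in MSC_day0, so that it moved with the groups, and its part in the results was not tested. In such bulk samples fewer cells of a type and less RNA per cell cannot be told apart.

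Over 28 days of culture the family split in MSCs. ANXA3 fell most, to the low end of the scale, ANXA2, ANXA5 and ANXA6 fell by smaller amounts, ANXA8L1 rose 6.67-fold and ANXA11 rose, while ANXA1 and ANXA4 did not pass. By probe set, 7 were lower and 3 higher in MSC_day28 than in MSC_day0 among the 12, in a comparison in which 30.2% of all probe sets were called, 15.6% lower and 14.6% higher. By gene 4 of 8 were lower and 2 higher, where 34.5% of all genes were called, 21% lower and 13.5% higher. The median difference of the 12 was -0.73, beside -0.06 over all probe sets. Between chondrocytes_day28 and MSC_day28, 2 of 12 were called, ANXA2 and ANXA6, both higher in chondrocytes, where 10.3% of all probe sets were called, 6.27% higher and 4.06% lower, and the median was 0.21 beside -0.03. Of all genes 13.2% were called there, 8.35% higher and 4.81% lower. Between chondrocytes_day28 and MSC_day0, 4 of 12 were lower and 2 higher, where 31% of all were called, 15.9% lower and 15.1% higher, with a median of -0.36 beside -0.07. By gene 2 of 8 were lower and 1 higher, where 36% of all genes were called, 20.9% lower and 15.1% higher. The comparisons share arrays with one another, so that their values are given side by side and not set against each other as separate evidence.

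**Figure D1:**
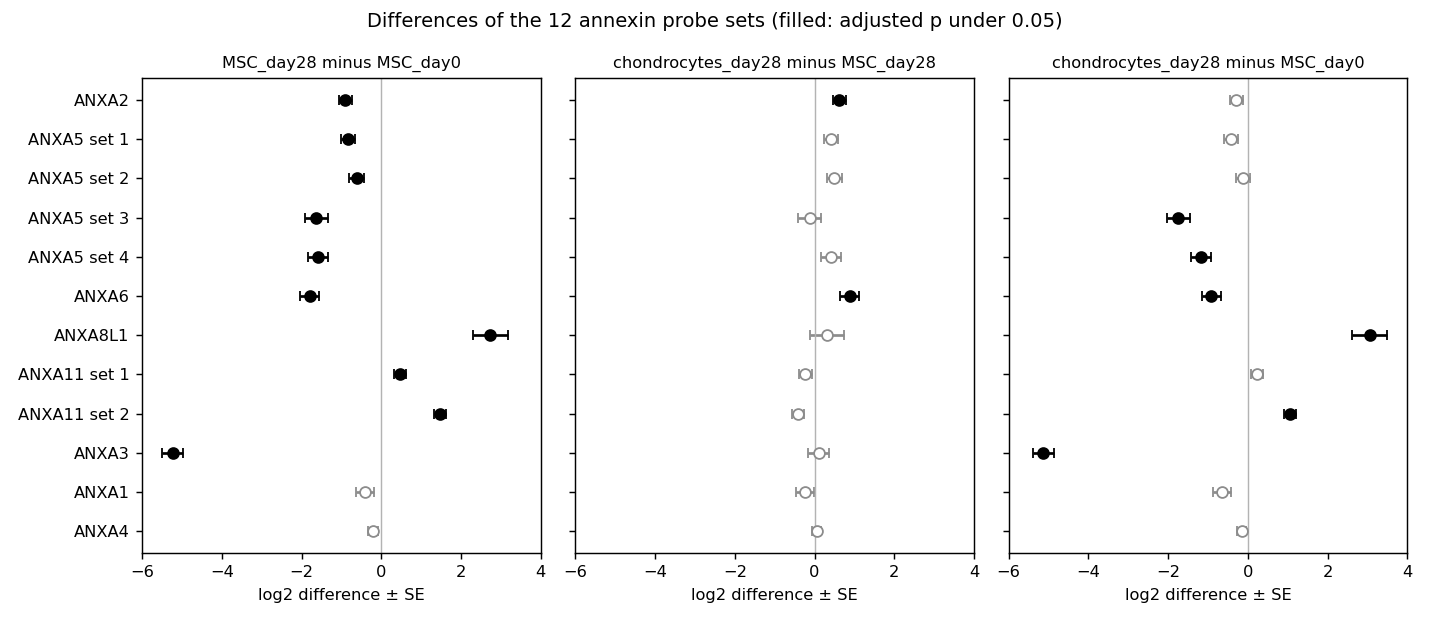
Log2 differences (x axis, with bars of ± 1 SE from limma, n = 3 arrays per group) of the 12 annexin probe sets (y axis) in the 3 comparisons, with filled points for an adjusted p under 0.05. ANXA3 at -5.23 and -5.13 and ANXA8L1 at 2.74 and 3.06 stand farthest from 0 in the comparisons with MSC_day0, and in chondrocytes_day28 minus MSC_day28 only ANXA2 and ANXA6 are filled.

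ANXA2, which forms a complex with S100A10 and at the cell surface binds plasminogen and its activator, was lowest in MSC_day28. The levels in donors 1, 2 and 3 were 11.73, 11.83 and 11.71 in chondrocytes_day28, 10.85, 11.43 and 11.11 in MSC_day28, and 11.95, 12.01 and 12.15 in MSC_day0. No MSC_day28 array reached the lowest array of either other group, and the highest chondrocyte array lay just under the lowest MSC_day0 array. ANXA2 fell by 0.91 ± 0.16 in MSC_day28 relative to MSC_day0 (adjusted p = 0.00265), in 3 of 3 donors. It was higher by 0.62 ± 0.16 in chondrocytes_day28 than in MSC_day28 (adjusted p = 0.0412). That call was lost in 11 of 18 other settings, with an adjusted p from 0.0124 to 0.136, and leaving out both low-control arrays gave 0.64 with an adjusted p of 0.132. Chondrocytes_day28 minus MSC_day0 was -0.28 ± 0.16 and did not pass (adjusted p = 0.223, interval of 95% from -0.65 to 0.08).

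ANXA6, an annexin with a duplicated core that is found on endosomes and on matrix vesicles, was at 9.13, 9.45 and 8.49 in chondrocytes_day28, at 8.20, 8.33 and 7.88 in MSC_day28, and at 9.84, 10.00 and 9.97 in MSC_day0. The groups did not overlap, in the order MSC_day28, chondrocytes_day28, MSC_day0, and donor 3 was the lowest in both day 28 groups, on the low-control arrays. In MSC_day28 it fell by 1.80 ± 0.24 relative to MSC_day0 (3.48-fold, adjusted p = 0.000511). In chondrocytes_day28 minus MSC_day0 it differed by -0.91 ± 0.24 (adjusted p = 0.0167, and 0.0519 without MSC_day0 replicate 2). It was higher by 0.88 ± 0.24 in chondrocytes_day28 than in MSC_day28 (adjusted p = 0.0458). This last call was lost in 10 of 18 settings, with a range of 0.00744 to 0.148, but was kept when both low-control arrays were left out, at 1.02 (adjusted p = 0.0166).

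ANXA5 binds phosphatidylserine and type II collagen, and its labelled protein is the usual stain for dying cells. Its 4 probe sets are numbered by falling mean over all arrays, as are those of ANXA11 below. Set 1 was at 11.15, 11.15 and 11.56 in chondrocytes_day28, at 10.63, 10.86 and 11.14 in MSC_day28, and at 11.61, 11.70 and 11.84 in MSC_day0. In each group the array of donor 3 was the highest, and the groups stood in the same order as for ANXA6 without overlap, though only just. Set 1 fell by 0.85 ± 0.18 in MSC_day28 relative to MSC_day0 (adjusted p = 0.00583). Neither its difference between chondrocytes_day28 and MSC_day28 (0.41 ± 0.18, adjusted p = 0.186) nor that between chondrocytes_day28 and MSC_day0 (-0.43 ± 0.18, adjusted p = 0.0952) passed. The last one passed in 5 of 19 settings (adjusted p up to 0.301), among them the blocked fit by donor (0.0384). Also among the 5 was the mean of all 4 sets (0.00983), which is not a value of set 1 alone.

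All 4 ANXA5 probe sets fell in MSC_day28 relative to MSC_day0, by 0.62 to 1.63. The weaker sets 3 and 4 had the larger falls, of 1.63 ± 0.29 and 1.60 ± 0.25 (adjusted p = 0.00253 and 0.00141), against 0.62 ± 0.18 for set 2 (adjusted p = 0.0293, which reached 0.0932 over the settings). Set 3 was at 3.16, 3.20 and 4.17 in MSC_day28 and at 5.17, 5.19 and 5.06 in MSC_day0. Set 4 was at 2.33, 2.03 and 2.97 in MSC_day28 and at 3.84, 4.21 and 4.08 in MSC_day0. On both sets the low-control MSC_day28 array of donor 3 stood above the other MSC_day28 arrays, and leaving out both low-control arrays gave falls of 1.96 and 1.86. Set 4 was under the 25th percentile of its array on 2 of 3 MSC_day28 arrays, which puts it at the low end of the scale.

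In chondrocytes_day28 minus MSC_day0 only sets 3 and 4 of ANXA5 passed. They differed by -1.75 ± 0.29 and -1.18 ± 0.25 (adjusted p = 0.00181 and 0.00696), while set 2 was at -0.12 ± 0.18 (adjusted p = 0.662) and set 1 did not pass, as given above. The gap between sets 1 and 3 on the same array averaged 7.90 ± 0.17 in chondrocytes_day28, 7.36 ± 0.36 in MSC_day28 and 6.58 ± 0.18 in MSC_day0 (SD, n = 3). These gaps did not overlap between groups, with a 2-sided exact permutation p of 0.1 for each pair of groups, the smallest that 3 arrays against 3 allow, so that no gap could pass (0.133 adjusted over 12 such tests). The gap between sets 1 and 4 was 8.43 ± 0.21 in chondrocytes_day28, 8.43 ± 0.35 in MSC_day28 and 7.68 ± 0.16 in MSC_day0, and the 2-sided exact permutation p between the day 28 groups was 1. The gap between sets 1 and 2 was 0.17 ± 0.14 in chondrocytes_day28, 0.25 ± 0.20 in MSC_day28 and 0.48 ± 0.10 in MSC_day0, with a 2-sided exact permutation p of 0.7 between the day 28 groups and of 0.3 for MSC_day28 against MSC_day0. What part of the transcript each set reads was not analysed here. The mean of the 4 sets gave -1.17 for MSC_day28 minus MSC_day0 and -0.87 for chondrocytes_day28 minus MSC_day0, and the difference from MSC_day0 in chondrocytes passed (adjusted p = 0.00983). Sets 3 and 4, the only ones to pass there by themselves, averaged 3.39 and 2.86 in chondrocytes_day28, toward the low end of the scale. The call of the mean is therefore not a call of the stronger sets 1 and 2.

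**Figure D2:**
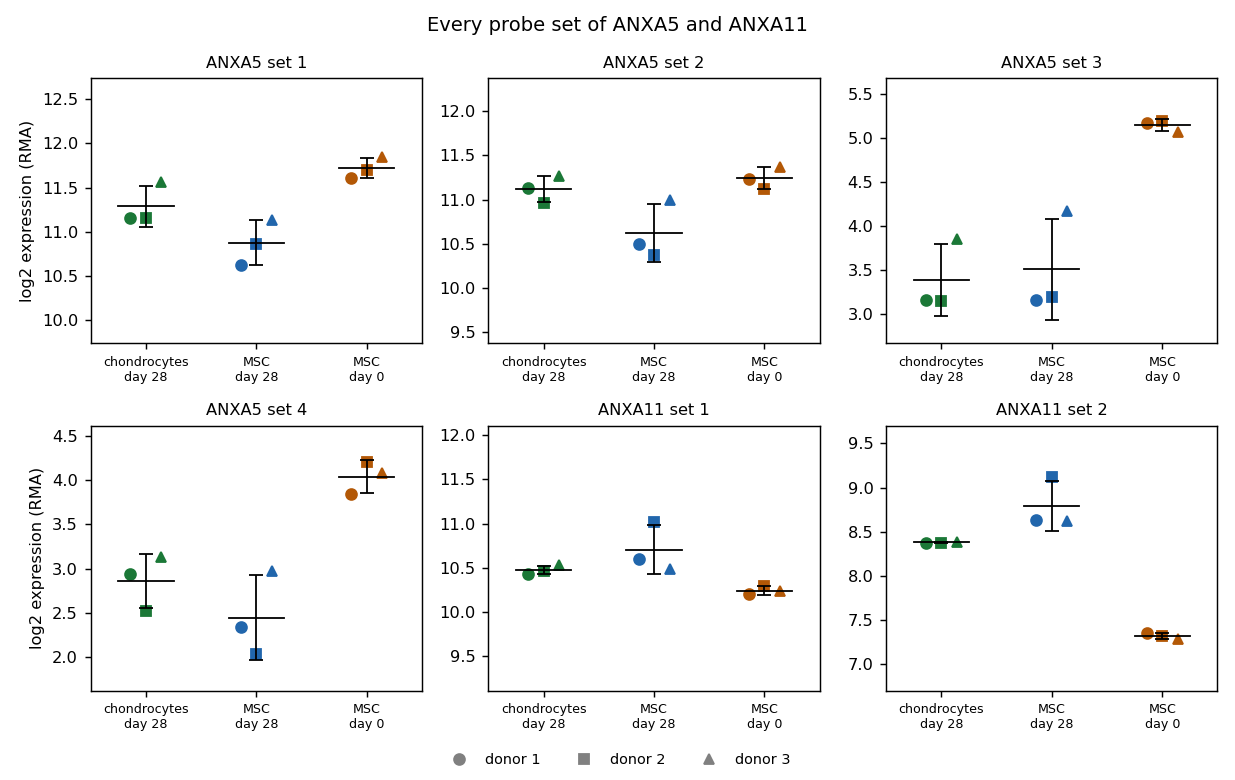
Log2 expression (y axis, 3 units in every panel) of the 4 probe sets of ANXA5 and the 2 of ANXA11 in each group (x axis), numbered by falling mean, with a symbol for each donor and a bar for the mean ± SD of 3 arrays. All ANXA5 sets are lower in MSC_day28 than in MSC_day0, sets 3 and 4 more so, and both ANXA11 sets are higher.

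ANXA8L1 was higher in both day 28 groups than in MSC_day0. In humans ANXA8 protein has been described in hypertrophic chondrocytes of the growth plate. The values were 12.60, 12.60 and 12.61 in chondrocytes_day28, 12.19, 12.34 and 12.33 in MSC_day28, and 8.90, 8.93 and 10.81 in MSC_day0. Day 28 arrays of both cell types were all above every MSC_day0 array, and in MSC_day0 donor 3 stood well above donors 1 and 2. ANXA8L1 was higher in MSC_day28 than in MSC_day0 by 2.74 ± 0.43 (adjusted p = 0.00139) and higher in chondrocytes_day28 than in MSC_day0 by 3.06 ± 0.43 (8.32-fold, adjusted p = 0.000773). Both passed in all 18 settings, at differences of 2.42 to 3.37 and 2.74 to 3.69, highest without MSC_day0 replicate 3.

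The donors differed in how much ANXA8L1 rose. In MSC_day28 minus MSC_day0 the differences were 3.28, 3.41 and 1.52 in donors 1, 2 and 3. On the MSC_day0 array of donor 3, COL2A1 was at 8.44 beside 7.85 and 6.89 on those of donors 1 and 2, and ACAN at 7.50 beside 5.63 and 6.63. Of the 6 chondrocyte markers, COL2A1, ACAN, HAPLN1 and COL9A1 had their highest MSC_day0 value in donor 3, while COMP, at 4.52, 4.56 and 4.43 in donors 1, 2 and 3, and COL11A2, at 3.51, 3.76 and 3.41, had their lowest there. Their part in the ANXA8L1 value was not tested. Between chondrocytes_day28 and MSC_day28 ANXA8L1 differed by 0.32 ± 0.43 (adjusted p = 0.740, interval of 95% from -0.66 to 1.29), though all 3 chondrocyte arrays were above all 3 MSC_day28 arrays. The standard error pools the spread of all groups, and the SD was 0.00745 in chondrocytes_day28, 0.0849 in MSC_day28 and 1.09 in MSC_day0. A fit of the day 28 groups alone gave no call either (adjusted p = 0.179).

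ANXA11, whose long tail binds the calcium sensor PDCD6 and which tethers RNA granules to lysosomes, was the other member with rises. Its set 1 was at 10.43, 10.47 and 10.53 in chondrocytes_day28, at 10.60, 11.02 and 10.49 in MSC_day28, and at 10.20, 10.29 and 10.23 in MSC_day0. Its set 2 was at 8.38, 8.38 and 8.39 in chondrocytes_day28, at 8.64, 9.12 and 8.62 in MSC_day28, and at 7.36, 7.33 and 7.28 in MSC_day0. Both sets put every day 28 array above every MSC_day0 array, and both were highest in donor 2 of MSC_day28. Set 2 rose by 1.47 ± 0.15 in MSC_day28 relative to MSC_day0 (2.78-fold, adjusted p = 0.00015) and was higher by 1.06 ± 0.15 in chondrocytes_day28 than in MSC_day0 (adjusted p = 0.000892).

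The call of ANXA11 set 1 was weak. It was higher by 0.46 ± 0.15 in MSC_day28 than in MSC_day0 (adjusted p = 0.0489). This call was lost in 12 of 19 settings (adjusted p up to 0.129), among them the blocked fit by donor (0.0513). The 19 settings included the mean of both sets, at 0.97, which is not a value of set 1 alone. Without MSC_day28 replicate 2 the difference of set 1 was 0.30. In chondrocytes_day28 minus MSC_day0 set 1 stood at 0.23 ± 0.15 (adjusted p = 0.296). The gap between the sets on the same array averaged 2.09 ± 0.04 in chondrocytes_day28, 1.91 ± 0.05 in MSC_day28 and 2.92 ± 0.07 in MSC_day0 (SD, n = 3), with no overlap between groups (2-sided exact permutation p = 0.1, the smallest possible, and 0.133 adjusted over 12 tests). Chondrocytes_day28 minus MSC_day28 passed for neither set, at -0.23 ± 0.15 and -0.41 ± 0.15 (adjusted p = 0.427 and 0.130).

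ANXA3, an annexin found in neutrophils and other cells, changed most. It was at 2.93, 2.51 and 2.13 in chondrocytes_day28, at 2.65, 2.48 and 2.13 in MSC_day28, and at 8.09, 7.56 and 7.31 in MSC_day0. All day 28 arrays were far below every MSC_day0 array, and on 2 of 3 arrays in each day 28 group ANXA3 was under the 25th percentile of its array. ANXA3 was called lower in MSC_day28 than in MSC_day0, with a fitted difference of -5.23 ± 0.26 (adjusted p = 3.67e-06), and lower in chondrocytes_day28 than in MSC_day0, with -5.13 ± 0.26 (adjusted p = 2.61e-06). The day 28 values lie at the low end of the scale, where signal cannot be told from background here, so that the direction was measured and the size of the change was not, and no fold is given. Donor 1 was the highest and donor 3 the lowest in all 3 groups. Chondrocytes_day28 minus MSC_day28 was 0.10 ± 0.26 (adjusted p = 0.877, interval of 95% from -0.48 to 0.69).

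Markers of blood cells, in which ANXA3 is also found, were set beside it. Of 10 measured, 4 were lower and 1 higher in MSC_day28 than in MSC_day0, where 21% of all genes were lower and 13.5% higher. Their summed linear signal ranged from 363.1 to 406 in MSC_day28, against 549.7 to 824.7 in MSC_day0, mostly from CTSS in both groups. Among the MSC_day0 arrays TYROBP, a myeloid adaptor, was at 5.43, 5.92 and 3.22 in donors 1, 2 and 3, and AIF1, a macrophage gene, at 4.91, 5.28 and 2.45. CTSS, a lysosomal protease of myeloid cells that also was lower in MSC_day28, was at 9.15, 9.18 and 8.88, and S100A12, a calcium-binding protein of neutrophils, at 7.01, 7.64 and 3.38. CD68 was at 6.12, 5.42 and 4.71 there, CD14 at 5.08, 5.68 and 3.09, and CSF1R at 4.42, 4.96 and 3.78. All of these genes were lowest in donor 3 of MSC_day0, as was ANXA3, at 8.09, 7.56 and 7.31. The part of blood cells in the ANXA3 difference was not tested.

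The remaining members, ANXA1 and ANXA4, were called in no comparison. ANXA1, which is induced by glucocorticoids, restrains phospholipase A2 and acts on formyl peptide receptors, was at 10.98, 10.92 and 10.82 in chondrocytes_day28, at 10.91, 11.67 and 10.87 in MSC_day28, and at 11.47, 11.78 and 11.41 in MSC_day0. Only the MSC_day28 array of donor 2 reached the MSC_day0 range, and chondrocytes lay wholly below it. The difference of chondrocytes_day28 and MSC_day0 was -0.65 ± 0.22 and just missed the threshold (adjusted p = 0.0514), and was called in 7 of 18 settings (0.00977 to 0.154), among them the blocked fit by donor (0.0256). MSC_day28 minus MSC_day0 was -0.40 ± 0.22 (adjusted p = 0.208) and passed only without MSC_day28 replicate 2, at -0.67 (adjusted p = 0.0164, highest 0.493). ANXA4, common in epithelia and known from membrane repair, stayed between 11.13 and 11.47 over all 9 arrays. Its difference was -0.21 ± 0.12 in MSC_day28 minus MSC_day0 (adjusted p = 0.237, interval of 95% from -0.48 to 0.06), 0.05 ± 0.12 in chondrocytes_day28 minus MSC_day28 (0.873) and -0.16 ± 0.12 in chondrocytes_day28 minus MSC_day0 (0.365).

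**Figure D3:**
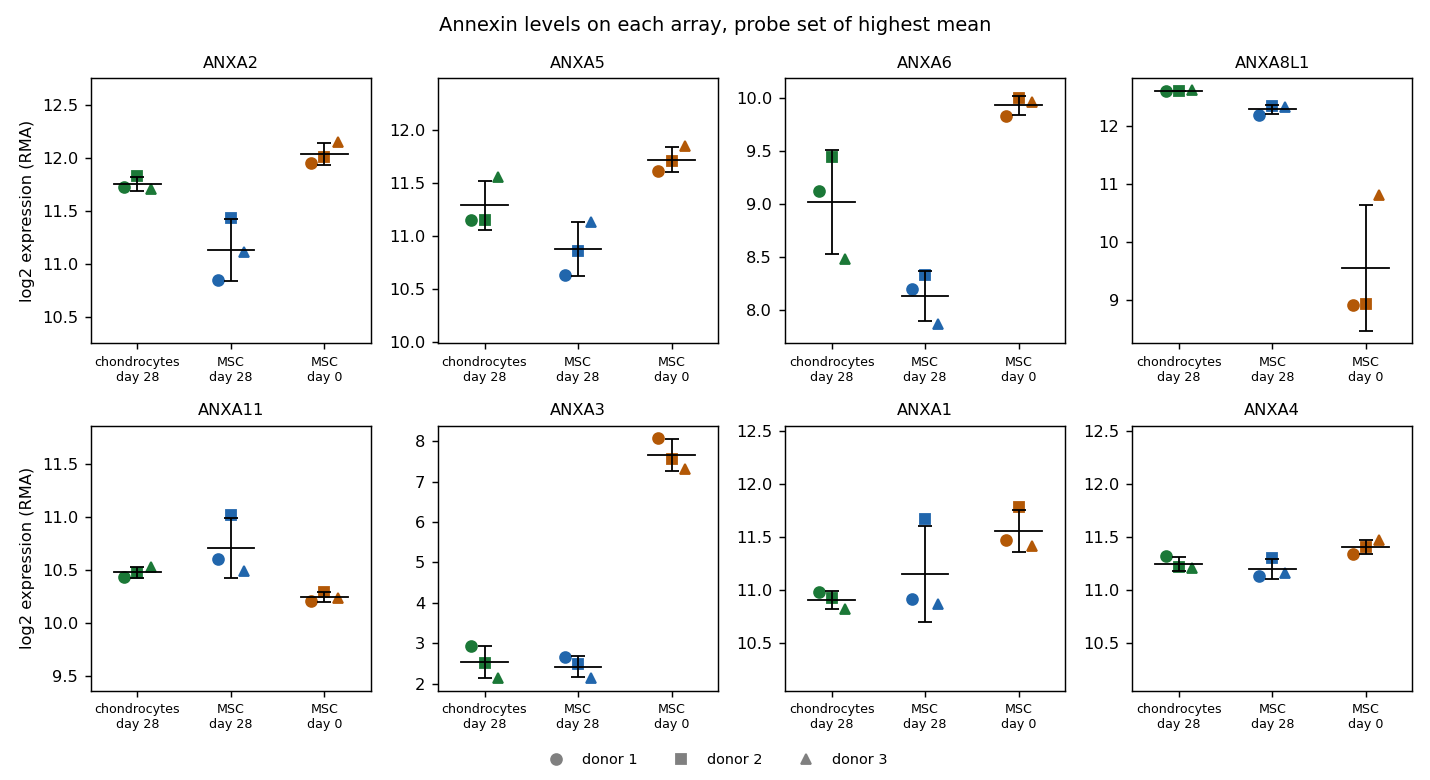
Log2 expression (y axis, whose range differs between panels) of each annexin by its probe set of highest mean in the 3 groups (x axis), with a symbol for each donor and a bar for the mean ± SD of 3 arrays. ANXA2, ANXA5 and ANXA6 are lowest in MSC_day28, ANXA8L1 is higher and ANXA3 far lower in both day 28 groups than in MSC_day0, and ANXA4 stays between 11.13 and 11.47.

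Counted without testing, 11 of the 12 probe sets did not overlap between MSC_day28 and MSC_day0, 3 higher and 8 lower, where 42.2% of all probe sets did not overlap. For chondrocytes_day28 against MSC_day0 it was also 11, 3 higher and 8 lower, where 46.7% of all did not. Between chondrocytes_day28 and MSC_day28 it was 5, of which 4 were higher in chondrocytes, where 26.8% of all did not. The overlapping one was ANXA1 between MSC_day28 and MSC_day0, and set 2 of ANXA5 between chondrocytes_day28 and MSC_day0.

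S100 partners of the annexins moved in MSCs as well. By the probe set of highest mean, of 6 measured S100 genes 3 were lower and 2 higher in MSC_day28 than in MSC_day0, where 34.5% of all genes were called, with a median of -1.17 beside -0.11 over all genes. S100A10, the partner of ANXA2, was at 11.65, 11.73 and 11.35 in chondrocytes_day28, at 10.94, 11.20 and 10.87 in MSC_day28, and at 11.91, 11.81 and 12.33 in MSC_day0. It was lowest in MSC_day28 without overlap, as ANXA2 was, and fell by 1.01 ± 0.18 relative to MSC_day0 (adjusted p = 0.00278), beside 0.91 for ANXA2. In chondrocytes_day28 minus MSC_day28 it was at 0.57 ± 0.18 (adjusted p = 0.0827), beside 0.62 for ANXA2, and its second probe set passed, at 1.19 (adjusted p = 0.0233).

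S100A11, a partner of ANXA1, fell by 1.32 ± 0.14 in MSC_day28 relative to MSC_day0 (adjusted p = 0.000187), and chondrocytes_day28 minus MSC_day0 was -0.74 ± 0.14 (adjusted p = 0.00449). It was higher by 0.59 ± 0.14 in chondrocytes_day28 than in MSC_day28 (adjusted p = 0.0323, and 0.0975 with both low-control arrays left out), while ANXA1 was at -0.24 there and did not pass. S100B, a marker of cartilage that can bind ANXA6, rose by 2.12 ± 0.16 in MSC_day28 relative to MSC_day0 (adjusted p = 3.21e-05) and was higher by 2.48 ± 0.16 in chondrocytes_day28 than in MSC_day0 (adjusted p = 1.1e-05), where ANXA6 was lower in both comparisons. Chondrocytes_day28 minus MSC_day28 was 0.36 ± 0.16 for S100B (adjusted p = 0.217) and 0.88 for ANXA6, with no overlap for either gene. S100A4 fell by 2.51 ± 0.32 in MSC_day28 relative to MSC_day0 (adjusted p = 0.000402), and S100A1 rose by 1.06 ± 0.28 (adjusted p = 0.0199).

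**Figure D4:**
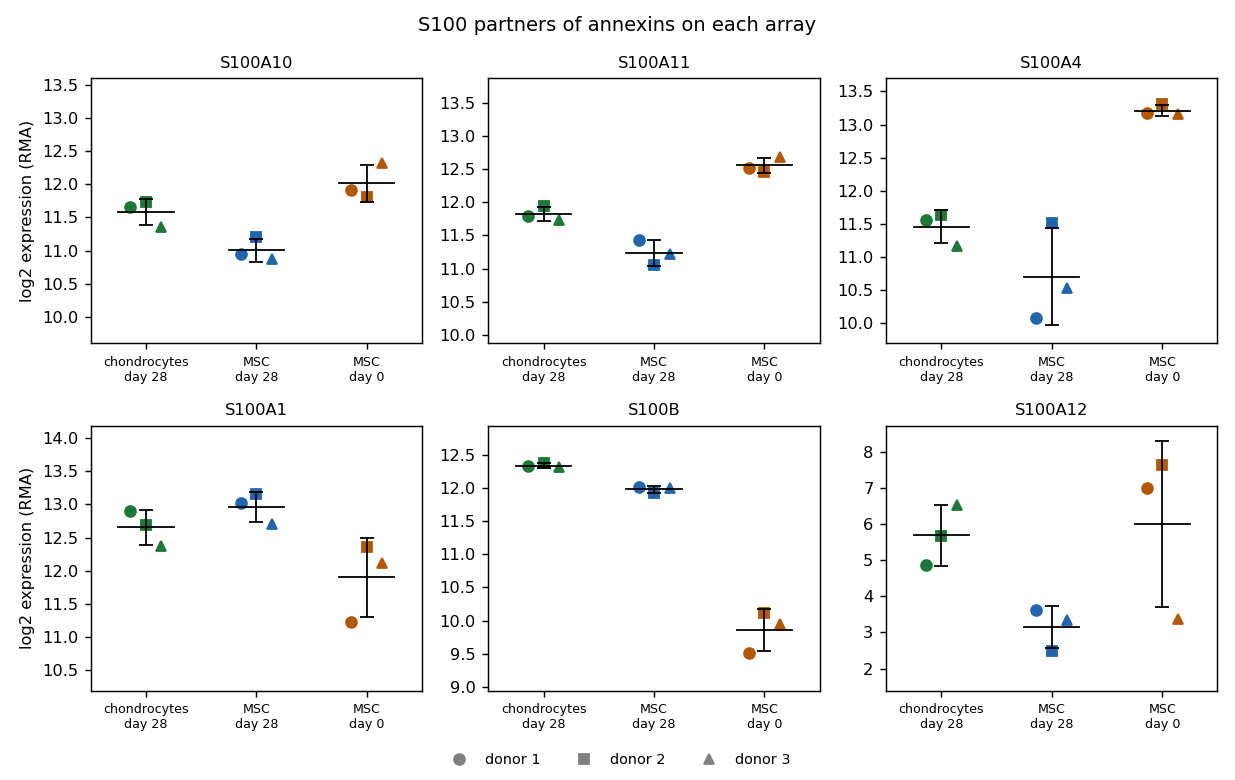
Log2 expression (y axis, whose range is wider for S100A12) of the 6 measured S100 genes in the 3 groups (x axis), with a symbol for each donor and a bar for the mean ± SD of 3 arrays. S100A10 and S100A11 are lowest in MSC_day28, S100B is higher in both day 28 groups than in MSC_day0, and S100A12 is at 3.38 in donor 3 of MSC_day0 beside 7.01 and 7.64 in donors 1 and 2.

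The genes of the plasminogen system that ANXA2 and S100A10 bring together at the cell surface included both of its activators, which were lower in MSC_day28 than in either other group. PLAU, urokinase, was at 9.04, 9.87 and 9.66 in chondrocytes_day28, at 4.66, 5.95 and 6.26 in MSC_day28, and at 9.24, 9.39 and 9.02 in MSC_day0. PLAT, the tissue activator, was at 5.99, 7.05 and 7.46 in chondrocytes_day28, at 4.61, 5.25 and 4.67 in MSC_day28, and at 7.12, 6.38 and 6.72 in MSC_day0. Neither gene's MSC_day28 arrays overlapped with those of another group. Of 4 measured genes of this list, 1 was higher and 2 lower in MSC_day28 than in MSC_day0, where 34.5% of all genes were called, and 3 were higher in chondrocytes_day28 than in MSC_day28, where 13.2% of all genes were called. PLAT was higher by 1.99 ± 0.37 in chondrocytes_day28 than in MSC_day28 (adjusted p = 0.00915), and leaving out both low-control arrays gave 1.59 with an adjusted p of 0.0593. The receptor PLAUR differed from the activators and was higher in MSC_day28 than in MSC_day0, by 2.31 ± 0.23 (adjusted p = 0.000114).

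Genes that work with ANXA5 and ANXA6 in matrix vesicles and mineral formation moved both ways. Of 8 measured, 4 were higher and 2 lower in MSC_day28 than in MSC_day0, where 13.5% of all genes were higher and 21% lower, with a median of 1.04 beside -0.11 over all genes. Leaving out both low-control arrays took the higher count to 3, since COL10A1 no longer passed (adjusted p = 0.0746). Rises were called in ENPP1, which makes pyrophosphate (2.48 ± 0.35, adjusted p = 0.000726), and in alkaline phosphatase, ALPL (5.95 ± 0.84, adjusted p = 0.000765). ALPL was at 3.09, 2.53 and 3.25 in MSC_day0, near the low end of the scale, so that the size of its rise is uncertain. Its other probe set did not pass, at 0.73. SMPD3, a vesicle sphingomyelinase, and COL10A1 rose as well. COL10A1 was uneven between donors in MSC_day28, at 8.40, 3.46 and 4.78. The phosphate transporter SLC20A2 and the ectonucleotidase NT5E fell, by 1.08 ± 0.23 and 0.81 ± 0.20 (adjusted p = 0.00702 and 0.0123). The other NT5E probe set did not pass, at -0.59 (adjusted p = 0.311). In chondrocytes_day28 relative to MSC_day0, 4 were higher and 1 lower, where 36% of all genes were called. Leaving out both low-control arrays took the higher count to 3, without ANKH, a pyrophosphate transporter (adjusted p = 0.0822). With all arrays the other ANKH probe set also was higher in chondrocytes_day28 than in MSC_day0, by 1.23 (adjusted p = 0.00542).

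Of 9 measured membrane repair and vesicle partners, 5 were lower and none higher in MSC_day28 than in MSC_day0 (median -0.65 beside -0.11), where 21% of all genes were lower, and leaving out both low-control arrays left 4. The calcium protease CAPN1 fell by 2.00 ± 0.16 (adjusted p = 4.05e-05) and MYOF, myoferlin, by 1.64 ± 0.23 (adjusted p = 0.000821). Sorcin, SRI, a partner of ANXA7, fell by 0.65 ± 0.21 by its probe set of highest mean (adjusted p = 0.0429, and 0.0717 with both low-control arrays left out), and another of its 3 sets fell by 1.12 (adjusted p = 0.000245), whereas the third, with a mean of 2.39 in MSC_day0 at the low end of the scale, rose by 2.19. PDCD6, the partner of ANXA11, was at -0.06 ± 0.19 and did not pass (adjusted p = 0.859). Of 9 copines and extended synaptotagmins, which bind membranes with calcium through another fold, 1 was lower and none higher in MSC_day28 than in MSC_day0, where 34.5% of all genes were called. It was ESYT1, at -1.05 ± 0.22 (adjusted p = 0.00581), and with the donor as a block CPNE9 was also called, as higher (0.86, adjusted p = 0.0431).

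Of annexins outside the 9, ANXA13 and ANXA10 were named on the array. ANXA13, which carries a lipid anchor and is known from the gut, was at 5.04, 4.99 and 4.95 in chondrocytes_day28, at 5.70, 5.78 and 6.35 in MSC_day28, and at 7.23, 8.17 and 7.87 in MSC_day0. The groups did not overlap and chondrocytes were lowest. It fell by 1.81 ± 0.25 in MSC_day28 relative to MSC_day0 (adjusted p = 0.000709), and chondrocytes_day28 minus MSC_day0 was -2.76 ± 0.25 (adjusted p = 7.31e-05). Its difference of -0.95 ± 0.25 in chondrocytes_day28 minus MSC_day28 passed (adjusted p = 0.0444) but not with both low-control arrays left out (0.189). ANXA10, at about 2 on the log2 scale, passed in no comparison, with differences of 0.04, 0.00 and 0.04. Neither FPR1 nor FPR2, the receptors of ANXA1, nor the phospholipases PLA2G4A and PLA2G2A had a named probe set, and they were not analysed here.

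Likeness was measured by Pearson's r over the 9 arrays, which fall into 3 groups, so that r mostly reads the differences between groups and is given as a description. The genes most like ANXA3 among 5651 were OLR1, a scavenger receptor (0.992), the RNA helicase DDX47 (0.991) and the phosphatase subunit PPP2R2B (0.989). Those most like ANXA8L1 were RARRES2, which encodes chemerin (0.989), the microtubule protein MAP2 (0.985) and the cartilage matrix protein PRELP (0.976), which rose by 2.21, 1.88 and 2.27 in MSC_day28 relative to MSC_day0. For ANXA6 they were PGD, an enzyme of the pentose phosphate pathway (0.994), RUVBL1 (0.981) and CSRP1, a protein of actin filaments (0.980). For ANXA2 the first was LMNA, a lamin of the nuclear envelope (0.977), and for ANXA1 the clathrin light chain gene CLTA (0.992). Of 14 measured protein-coding genes at most 2 places from an annexin on its chromosome, 2 were higher and 2 lower in MSC_day28 than in MSC_day0. Of all genes 34.5% were called there. Among the called neighbours, 1 had the same call as its annexin and 1 the opposite. The latter was GPX3, a secreted glutathione peroxidase 2 places from ANXA6, which was higher.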

How the data were processed

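The deposited values are log2 expression per probe set on single-colour arrays, 1 per sample, made with RMA by the authors per the submitters' processing notes (version not given in the sources used here). Per the labels' protocols, total RNA was copied from a poly(T) primer, amplified and labelled with biotin. RMA brings all arrays to 1 distribution, which hides a change in total RNA per cell. Of 24128 probe sets, 112 controls were left out. Gene names came from the platform annotation, updated through RefSeq (ARS-UCD2.0): 13292 probe sets had 1 symbol, 86 several and 10638 none, for 9155 genes. Genes in lists were represented by their probe set of highest mean.

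One fit of all 3 groups, without the donor, used lmFit and eBayes of limma 3.58.1 under R 4.3.3. Arrays of the same number come from the same calf by the labels, and deviations from group means correlated from 0.108 to 0.412 within donors across groups, so that the donor as a block was an alternative. The others were 3 scalings between arrays, a filter at the 25th percentile, a trended and robust variance, fits of 2 groups, 2 treatments of low hybridisation controls, the mean of a gene's probe sets and each array left out. Intervals are at 95%. The fit was tested on simulated data. Named genes were the members, the 2 genes of smallest p per list and comparison, those of counts of 5 or fewer, and the 3 genes most like a member (SD of at least 0.3). PDCD6, S100A12, ANKH, CPNE9, GPX3 and single cell type markers were named after their values were seen. The members and lists were chosen with earlier results of these data known. Few arrays limit the precision, and p-values measure the spread between 3 calves.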

Additional observations from a re-analysis of the deposited data

How the results depend on the processing

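Of the 18 calls among 36 differences of annexin probe sets, 13 held in every setting tried for them, and 13 of the 18 differences without a call stayed without one. The 10 calls in MSC_day28 minus MSC_day0 were 8 to 10 in every setting, and the 6 in chondrocytes_day28 minus MSC_day0 were 5 to 8. The 2 calls in chondrocytes_day28 minus MSC_day28 became 0 with arrays centred on their median, 0 with a fit of only these groups, 1 with both low-control arrays left out and 0 to 1 with 1 array left out. Leaving out any 1 of the 9 arrays ended at least 1 of these calls, whose adjusted p was near the threshold, at 0.0412 and 0.0458. The MSC_day0 arrays do not enter these differences and act only through the pooled spread. With the donor as a block (replicate block) the counts were 9, 2 and 8. By gene, 3 were called in chondrocytes_day28 minus MSC_day0 by the probe set of highest mean, and 6 with the mean of a gene's probe sets.

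Signs that turned were all of differences without a call. In chondrocytes_day28 minus MSC_day28, ANXA1 ranged from -0.386 to 0.0180 with 1 array left out and was above 0 only without MSC_day28 replicate 2. ANXA3 ranged from -0.0995 to 0.299 likewise and was below 0 without chondrocytes_day28 replicate 1 and, at -0.0408, without MSC_day28 replicate 3. ANXA4 was at -0.0159 with arrays centred on their median, and set 3 of ANXA5 at 0.0396 with centring on ribosomal protein probe sets and from -0.353 to 0.210 with 1 array left out, highest without MSC_day28 replicate 3. Set 2 of ANXA5 was at 0.0352 in chondrocytes_day28 minus MSC_day0 with centring on ribosomal protein probe sets. Centring on ribosomal protein probe sets put the median of all probe sets in chondrocytes_day28 minus MSC_day28 at 0.13, against -0.03 as deposited, and centring on the array median put it at -0.19 in chondrocytes_day28 minus MSC_day0, against -0.07. As deposited 1506 probe sets were higher and 976 lower in chondrocytes_day28 minus MSC_day28, against 2124 and 580 with ribosomal and 1344 and 1359 with median centring. In chondrocytes_day28 minus MSC_day0 they were 3622 and 3823, against 4528 and 2660 with ribosomal centring, 3110 and 5255 with median centring and 4094 and 3194 with cyclic loess. Where another setting changed a call, the cause was not tested. Detection calls were not used here, so that a low signal such as that of ANXA3 at day 28 cannot be told from background.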
